A study of Homo sapiens with 40 samples.

Results

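The 9 genes described here are the BCL2 family members PMAIP1, BCL2L11, BID, MCL1, BCL2, BCL2L1, BAX and BAK1, and TNFRSF10B, the gene of death receptor 5. They were chosen by symbol, with earlier results of these data known. All 9 symbols are present among the 28278 gene symbols of the count table, and all 9 passed the filter on low counts with 16739 genes in all. RNA was sequenced in 40 libraries of HEK293T, a human embryonic kidney cell line, in 10 groups of 4. Each of 5 lines was given vehicle (called normal in the labels) or antimycin A, which blocks complex III of the respiratory chain, at 40 nM over 6 hours. WT-vector cells are wild type for SLC25A12, the mitochondrial aspartate and glutamate carrier, and carry an empty vector. KO-vector cells are SLC25A12 knockout with the vector. A set of libraries is labelled as knockout plus SLC25A12-WT, and F137S cells are knockout with SLC25A12-F137S. The dMTS-DELE1 cells are knockout with SLC25A12-F137S and also dMTS-DELE1, a form of the stress messenger DELE1. The labels call the libraries of a group biological replicates without saying whether they are separate cultures, so p-values measure the spread between these samples. They do not say whether a knockout line is 1 clone.

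Library totals ran from 30730335 to 31965438 counts, and expression is given as CPM, a gene's count set on a common library total after scaling by the trimmed mean of M-values. SLC25A12 in vehicle stood at 38.7 CPM in WT-vector cells, 3.08 in KO-vector cells, 1853 with F137S and 3716 with dMTS-DELE1. The libraries labelled KO + SLC25A12-WT were at 38.9 CPM, as high as WT-vector cells, and are named by their label throughout. They differed from WT-vector cells in 0 of 16739 genes in vehicle and 1 with antimycin A (edgeR, adjusted p under 0.05). At an unadjusted p under 0.05 there were 778 and 805, and DESeq2 called 0 and 1. Unedited cells, a mix-up of labels and a rescue at the native level cannot be told apart here, so their values are not shown to be those of a rescued knockout. DELE1 stood at 5344 CPM in dMTS-DELE1 cells in vehicle and between 45.9 and 49.7 in the other lines. Of 6 HEK293 markers all were detected, and their summed level moved with the line. In vehicle it was 426.4 to 451.9 CPM per library in WT-vector cells and 439.3 to 457.7 in the labelled libraries. KO-vector cells were at 228.8 to 239 CPM, F137S cells at 226.3 to 232.7 and dMTS-DELE1 cells at 200.1 to 205.8. With antimycin A it was 339.5 to 360.6 CPM over WT-vector and labelled libraries and 184.6 to 200.9 over the other 3 lines. Between KO-vector and WT-vector cells in vehicle, NEFM (log2 fold change -1.61 ± 0.03), LIN28B (-0.44 ± 0.03) and NEFL (-0.36 ± 0.04) were lower, and the other 3 did not pass. Markers of hepatocytes summed to 0.126 to 1.22 CPM, and those of blood cells to 3.83 to 6.57 CPM. The part of these marker levels in the results was not tested.

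Proteins of the BCL2 family set whether the outer mitochondrial membrane is opened to release cytochrome c, the step that starts the intrinsic pathway of apoptosis. BAX and BAK1 form the pores, MCL1, BCL2 and BCL2L1 (BCL-XL) hold them and their activators back, and the BH3-only proteins PMAIP1 (NOXA), BCL2L11 (BIM) and BID relieve that hold or activate the pores. Death receptor 5, at the cell surface, binds the ligand TRAIL and recruits FADD and caspase 8, which can cleave BID and so join the extrinsic pathway to mitochondria. PMAIP1 and TNFRSF10B are known targets of the stress transcription factors ATF4 and CHOP.

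Promoters of 7 of the 9 genes were found in the RefSeq table (GRCh38.p14), and MCL1 and TNFRSF10B had no entry. The PMAIP1 and BAX promoters are shown, 5′ to 3′ on the plus strand, because these genes moved in opposite directions between the knockout and wild-type lines in vehicle. Each sequence runs from 250 bases before the RefSeq start to the base before the earliest annotated transcript. Capitals mark TGACG, the core shared by ATF and CREB sites, and GGGCGG, the GC box, on either strand.
PMAIP1, chr18:59899746-59899947, plus strand: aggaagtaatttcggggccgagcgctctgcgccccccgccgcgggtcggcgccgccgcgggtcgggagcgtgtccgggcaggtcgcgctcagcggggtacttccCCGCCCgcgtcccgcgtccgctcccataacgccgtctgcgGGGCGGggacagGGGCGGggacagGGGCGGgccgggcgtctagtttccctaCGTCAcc
BAX, chr19:48954625-48954814, plus strand: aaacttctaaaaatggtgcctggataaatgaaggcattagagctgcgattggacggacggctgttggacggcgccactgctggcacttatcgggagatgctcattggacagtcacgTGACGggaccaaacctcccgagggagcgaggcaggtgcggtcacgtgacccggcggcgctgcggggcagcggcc

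The stretch printed for PMAIP1 has 202 bases, ends 48 bases before the RefSeq start and has a GC content of 76.2%. It holds 4 GC boxes and 1 TGACG on the opposite strand, at bases -55 to -51 from the start. The BAX stretch has 190 bases, a GC content of 61.1% and 1 TGACG on the gene's own strand, at -134 to -130. Its single GC box starts at -52, beyond the printed bases. Both strands of 35116 windows of 250 bases before a start were searched. TGACG was present in 21.2% of these windows and GGGCGG in 42.6%. GC boxes were also present in the windows of BCL2L11, BID and BAK1, with 0 in those of BCL2 and BCL2L1. BCL2 and BCL2L1 also have a TGACG, while the full ATF and CREB site TGACGTCA (1.65% of windows, and itself holding TGACG), the CHOP and ATF4 element TGATGNAA (3.14%) and the AP-1 site TGACTCA (4.2%) have 0 matches in the windows of the 7 genes. The motifs were chosen after the data were seen. A match is a run of letters and was not tested as a binding site.

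MCL1 had the highest mRNA level of the 9 genes and BCL2 the lowest. Compared per kilobase of the union of annotated exons (GENCODE 29 basic, GRCh38), MCL1 (chromosome 1, 150574551 to 150579738, minus strand) stood at 80.3 ± 1.40 CPM per kb in WT-vector cells in vehicle (SD, n = 4). BAX (chromosome 19, 48954815 to 48961798) followed at 58.1 ± 0.723 and PMAIP1 (chromosome 18, 59899948 to 59904306) at 49.7 ± 1.39 CPM per kb. TNFRSF10B (chromosome 8, 23020133 to 23069179, minus strand) stood at 23.3 ± 0.342 CPM per kb. Among the rest, BAK1 was at 18.2 ± 0.713, BID at 14.02 ± 0.889, BCL2L11 at 10.45 ± 0.361 and BCL2L1 at 5.64 ± 0.295 CPM per kb. BCL2 (chromosome 18, 63123346 to 63320128, minus strand) was at 0.480 ± 0.0296 CPM per kb. No neighbours in this order overlapped between libraries. The exon unions are 11.7 kb for BCL2 and 6.09 kb for BCL2L11, and which of these exons the cells use was not measured. In bulk RNA, fewer cells expressing a gene and less RNA per cell cannot be told apart.

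**Figure D1:**
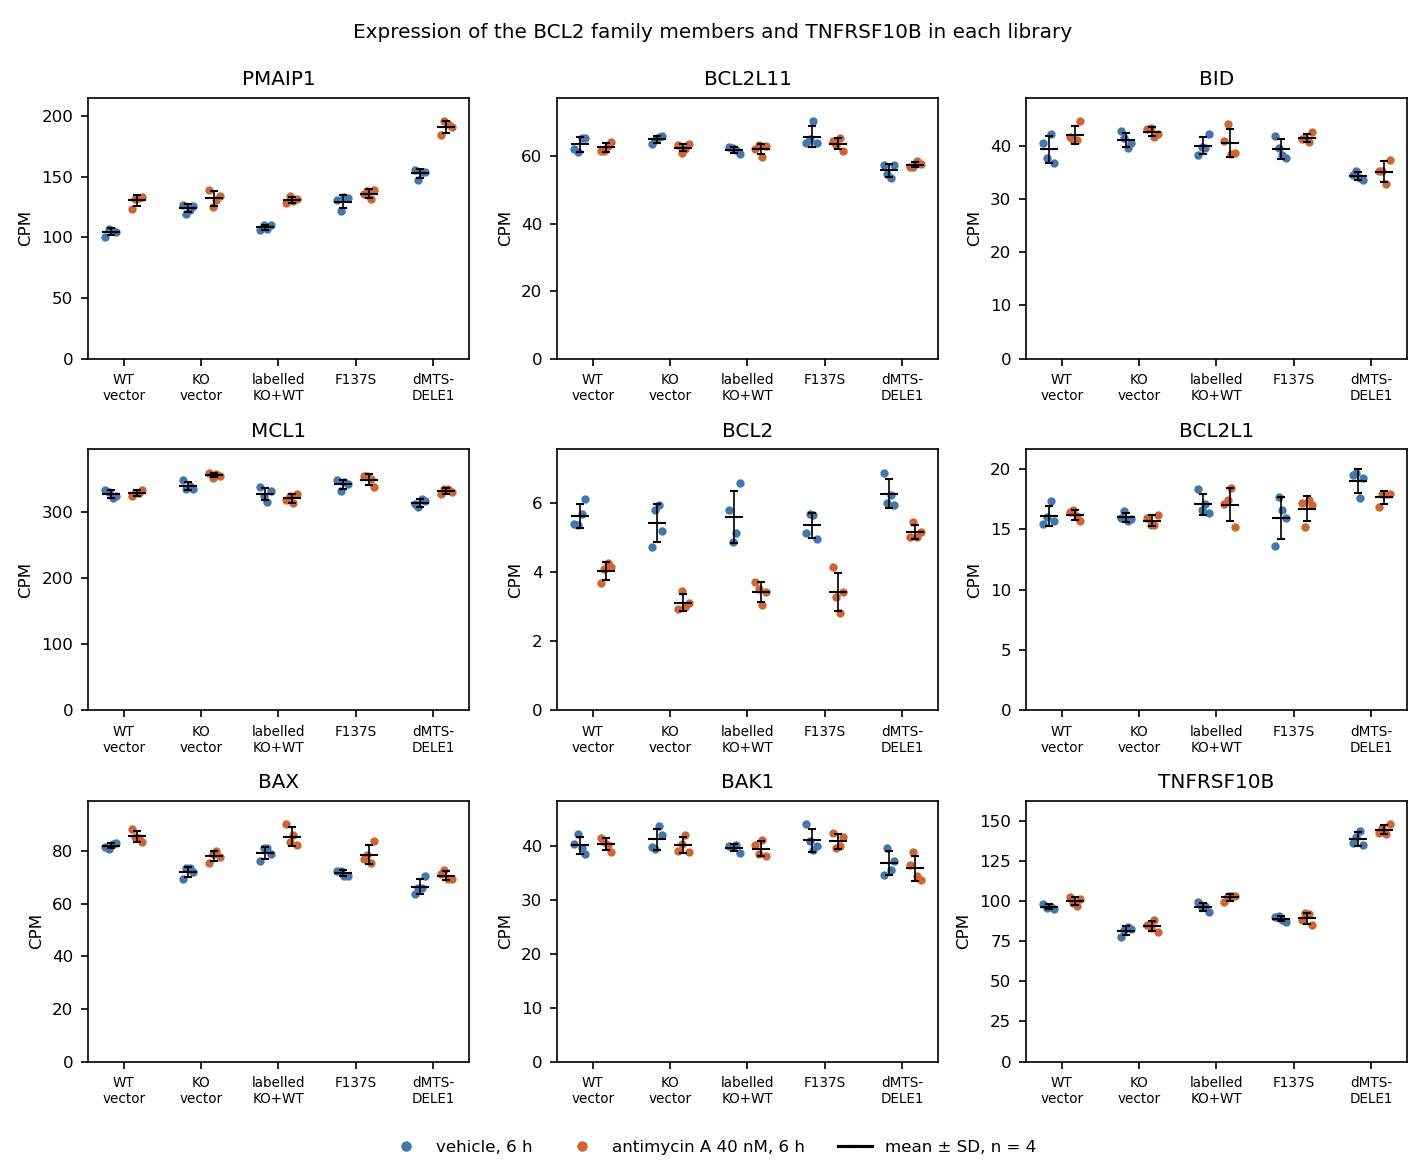
CPM of the 9 genes in each of the 40 libraries, 1 panel per gene, by line (horizontal axis) and treatment, with bars for the mean and SD of 4 libraries. PMAIP1 lies between 100.4 and 110.5 CPM in the WT-vector and labelled libraries in vehicle and between 147.3 and 155.5 in dMTS-DELE1 cells. BCL2 is lower with antimycin A in every line.

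Antimycin A raised PMAIP1 and lowered BCL2 in all 5 lines, while BCL2L11, BID, BCL2L1 and BAK1 passed the test in 0 of 5. Rose and fell are used where the adjusted p (edgeR quasi-likelihood test, Benjamini-Hochberg over all 16739 genes) was under 0.05. With 1 library left out, PMAIP1 lost its call in 3 of 8 fits in F137S cells and 1 of 8 in KO-vector cells. BCL2 lost its call in 5 of 8 such fits in dMTS-DELE1 cells. How many of all genes were called alike in all 5 lines was not computed. In WT-vector cells 1 of the 9 genes rose, where 25.5% of all tested genes rose, and 1 fell, where 26.4% of all fell. In KO-vector cells 3 rose (26.4% of all genes) and 1 fell (24.7%). In the libraries labelled KO + SLC25A12-WT 3 rose (25.9%) and 1 fell (26.4%). F137S cells had 2 up (26.3%) and 1 down (24.9%), and dMTS-DELE1 cells 3 up (17.6%) and 1 down (17.3%). The median log2 fold change of the 9 genes was 0.0073 in WT-vector cells and 0.0435 in dMTS-DELE1 cells, against 0.0097 and 0.0132 over all genes. No change of the 9 genes reached 2-fold in any line.

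Among the BH3-only genes, PMAIP1, whose product binds and neutralises MCL1, was higher in KO-vector than in WT-vector cells in vehicle and highest with dMTS-DELE1. In vehicle the WT-vector libraries held 100.4, 107.2, 105.4 and 104.7 CPM. The KO-vector libraries held 126.9, 119.5, 122.8 and 125.8 CPM. Those labelled KO plus SLC25A12-WT held 106.3, 109.7, 106.7 and 110.5 CPM. Every KO-vector library was above every library of the other 2 groups. F137S cells held 131.0, 121.5, 132.9 and 132.3 CPM, and dMTS-DELE1 cells 155.5, 147.3, 153.5 and 154.0. The dMTS-DELE1 libraries were all above the rest, and F137S libraries overlapped KO-vector ones.

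In vehicle, PMAIP1 was higher in KO-vector than in WT-vector cells, with a log2 fold change of 0.24 ± 0.03 (SE, n = 4 per group, adjusted p = 3.2e-11). It was lower in the libraries labelled KO + SLC25A12-WT than in KO-vector cells (-0.19, adjusted p = 4.7e-08). F137S and KO-vector cells differed by 0.07 (adjusted p = 0.78). In dMTS-DELE1 cells it was 17.9% higher than in F137S cells (0.24 ± 0.03, adjusted p = 8.2e-11).

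With antimycin A, PMAIP1 stood at 123.3, 131.7, 132.7 and 133.5 CPM in WT-vector cells. It stood at 138.8, 124.6, 130.8 and 133.9 in KO-vector cells. The 2 groups overlapped, and KO-vector minus WT-vector was 0.02 on the log2 scale (adjusted p = 0.62). Values were 128.0, 133.6, 129.8 and 131.7 CPM in the libraries labelled KO + SLC25A12-WT. They were 135.6, 138.5, 131.3 and 138.8 in F137S cells, and 183.9, 195.5, 193.3 and 190.9 in dMTS-DELE1 cells. The dMTS-DELE1 cells again stood above all others, 40.4% above F137S cells (log2 fold change 0.49 ± 0.03, adjusted p = 7.7e-26).

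The antimycin response of PMAIP1 was a rise of 24.8% in WT-vector cells (a log2 fold change of 0.32 ± 0.03, adjusted p = 8.2e-16), with no overlap between treated and vehicle libraries. The rise was 20.7% in the libraries labelled KO + SLC25A12-WT (0.27 ± 0.03, adjusted p = 5.4e-13) and 25.1% in dMTS-DELE1 cells (0.32 ± 0.03, adjusted p = 3.7e-16). Neither of these overlapped between treatments. In KO-vector cells it was 6.72% (0.09 ± 0.03, adjusted p = 0.0046) and in F137S cells 5.08% (0.07 ± 0.03, adjusted p = 0.032), with overlap in both. Without KO-vector antimycin replicate 1 the adjusted p in KO-vector cells was 0.055. In F137S cells it was 0.25 without vehicle replicate 2 (log2 fold change 0.0422), 0.086 without antimycin replicate 2 and 0.096 without antimycin replicate 4.

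The difference between responses was tested itself. The response of PMAIP1 was smaller in KO-vector than in WT-vector cells by 0.23 ± 0.04 on the log2 scale (KO minus WT -0.23, adjusted p = 0.00015), where 1.57% of all genes passed. It was larger in the libraries labelled KO + SLC25A12-WT than in KO-vector cells (0.18 ± 0.04, adjusted p = 0.0071; 1.65% of all genes) and larger in dMTS-DELE1 than in F137S cells (0.25 ± 0.04, adjusted p = 2.6e-06; 11.9%). In each of these 3 comparisons 1 of the 9 genes was called, and it was PMAIP1. Between F137S and KO-vector cells the difference was -0.02, with a 95% interval of -0.10 to 0.06 (adjusted p = 1.0). These differences use the same vehicle libraries as the levels above, and they share KO-vector or F137S libraries with each other.

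**Figure D2:**
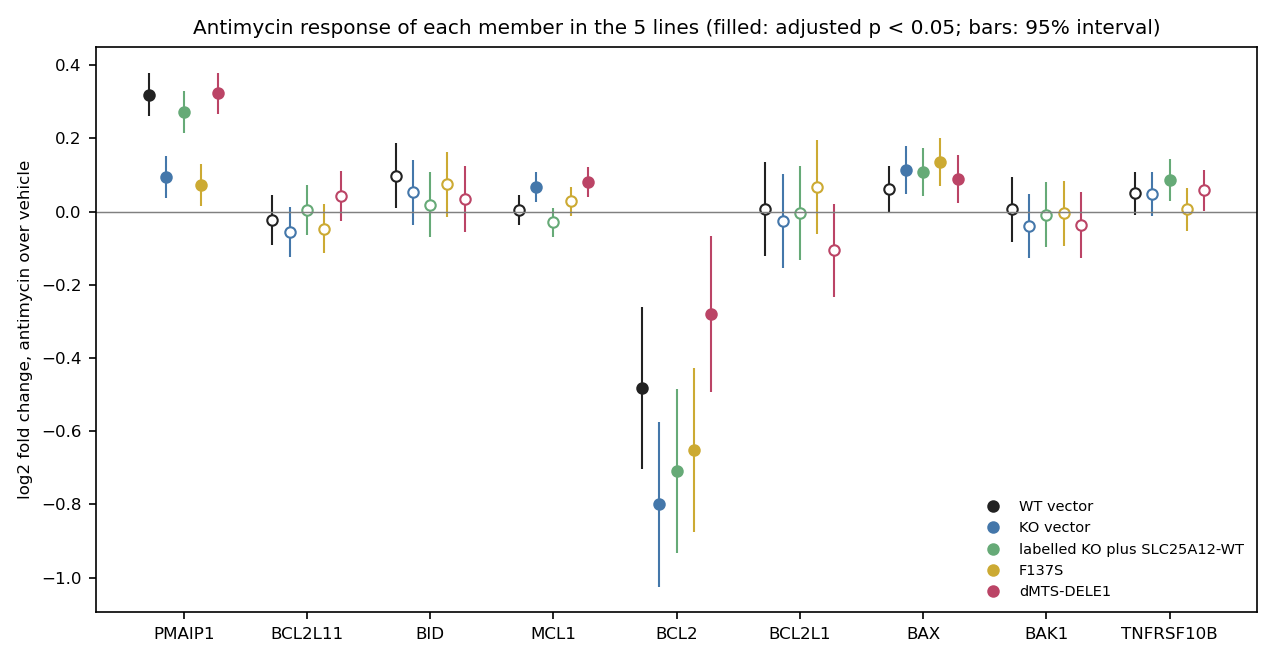
Log2 fold change of antimycin A against vehicle for each gene (horizontal axis) in each of the 5 lines (colours), with 95% intervals from the fit and filled points where the adjusted p is under 0.05. PMAIP1 runs from 0.07 in F137S cells to 0.32 in WT-vector and dMTS-DELE1 cells, and BCL2 lies below 0 in all 5 lines.

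BCL2L11, whose product can bind MCL1, BCL2 and BCL2L1 alike, was lower in dMTS-DELE1 than in F137S cells. Its group means in vehicle were 63.7 ± 2.20 CPM in WT-vector, 65.1 ± 1.06 in KO-vector and 65.9 ± 3.06 in F137S cells. The dMTS-DELE1 libraries held 57.34, 54.9, 53.6 and 57.56 CPM in vehicle, all below the lowest F137S library at 63.92. The log2 fold change against F137S cells was -0.24 ± 0.03 in vehicle (adjusted p = 1.1e-08) and -0.15 ± 0.03 with antimycin A (adjusted p = 0.00012). Its antimycin response ranged from -0.06 to 0.04 over the lines and passed in 0 of 5.

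BID, which caspase 8 cleaves into an active fragment, was also lower in dMTS-DELE1 than in F137S cells. The dMTS-DELE1 libraries held 34.58, 35.41, 33.99 and 33.54 CPM in vehicle, against 41.99, 39.66, 38.41 and 37.75 in F137S cells, with no overlap. The log2 fold change was -0.20 ± 0.05 in vehicle (adjusted p = 0.00018) and -0.24 ± 0.04 with antimycin A (adjusted p = 4.7e-06). The response of BID to antimycin A was 0.02 to 0.10 over the lines and passed in 0 of 5. In WT-vector cells it was 0.10 ± 0.04 (adjusted p = 0.058). With DESeq2's test the adjusted p was 0.037, and it was 0.014 without WT-vector vehicle replicate 3 and 0.047 without vehicle replicate 1.

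Of the genes that restrain BAX and BAK1, MCL1 differed by small amounts between lines and treatments. In vehicle it stood at 334.4, 331.3, 321.7 and 325.5 CPM in WT-vector cells and 349.5, 335.9, 340.6 and 335.2 in KO-vector cells. These groups did not overlap, with a log2 fold change of 0.05 ± 0.02 (adjusted p = 0.028). The call was lost without WT-vector vehicle replicate 3 (adjusted p = 0.11) or 4 (0.069) or KO-vector vehicle replicate 1 (0.14). In dMTS-DELE1 cells MCL1 stood at 312.1, 307.5, 321.1 and 316.7 CPM, below every F137S library (333.2 to 349.0). That difference was -0.13 ± 0.02 (adjusted p = 3.4e-07) in vehicle and -0.07 (adjusted p = 0.0015) with antimycin A.

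MCL1 rose with antimycin A in KO-vector cells, to 360.0, 353.0, 358.2 and 355.3 CPM (log2 fold change 0.07 ± 0.02, adjusted p = 0.0036), and in dMTS-DELE1 cells, to 327.3, 335.6, 335.9 and 330.5 (0.08 ± 0.02, adjusted p = 0.001). Treated and vehicle libraries did not overlap in either line. In WT-vector cells the change was 0.00 (adjusted p = 0.86), in the labelled libraries -0.03 (adjusted p = 0.23) and in F137S cells 0.03 (adjusted p = 0.25). A test over the 5 responses at once gave an adjusted p of 0.013 for MCL1. KO-vector minus WT-vector with antimycin A was 0.11 ± 0.02 (adjusted p = 1.5e-06), and the difference of those responses was 0.06 (adjusted p = 0.36). In the labelled libraries against KO-vector cells MCL1 was lower in vehicle (-0.05, adjusted p = 0.025). That call was lost without KO-vector vehicle replicate 1 (adjusted p = 0.13) or vehicle replicate 2 (0.062) or 3 (0.18) of the labelled libraries. With antimycin A the same comparison gave -0.15 ± 0.02 (adjusted p = 1.4e-09), without overlap.

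BCL2 was the only one of the 9 genes to fall with antimycin A. In vehicle it stood at 5.393, 5.351, 5.693 and 6.104 CPM in WT-vector cells, and with antimycin A at 3.67, 4.072, 4.246 and 4.148. In KO-vector cells it stood at 4.733, 5.783, 5.954 and 5.193 CPM in vehicle and 2.913, 3.462, 2.972 and 3.096 with antimycin A. The dMTS-DELE1 libraries held 6.871, 6.012, 6.225 and 5.949 CPM in vehicle and 5.021, 5.458, 5.019 and 5.145 with antimycin A. Treated libraries lay below vehicle libraries without overlap in all 5 lines. These levels rest on 88 to 218 counts per library.

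BCL2 fell by 28.4% in WT-vector cells (a log2 fold change of -0.48 ± 0.11, adjusted p = 0.00015). It fell by 42.5% in KO-vector cells (-0.80 ± 0.11, adjusted p = 5.8e-09). The change was -0.71 ± 0.11 in the libraries labelled KO + SLC25A12-WT (adjusted p = 1.1e-07) and -0.65 ± 0.11 in F137S cells (adjusted p = 8.8e-07). In dMTS-DELE1 cells it fell by 17.6% (-0.28 ± 0.11, adjusted p = 0.034). That call was lost without vehicle replicate 1 (adjusted p = 0.12) or 3 (0.056), or antimycin replicate 1 (0.073), 3 (0.073) or 4 (0.061), of dMTS-DELE1 cells. KO-vector minus WT-vector, the responses differed by -0.32 ± 0.16, which did not pass (adjusted p = 0.43), and those of dMTS-DELE1 and F137S cells by 0.37 ± 0.16 (adjusted p = 0.11). The second passed without F137S antimycin replicate 1 (0.4781, adjusted p = 0.038).

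Under antimycin A, BCL2 was lower in KO-vector than in WT-vector cells (a log2 fold change of -0.37 ± 0.12, adjusted p = 0.0051) and 51.4% higher in dMTS-DELE1 than in F137S cells (0.60 ± 0.11, adjusted p = 4.7e-06), without overlap in either comparison. In vehicle no difference between lines passed (adjusted p = 0.28 over the 5 lines at once). BCL2L1, the gene of BCL-XL, stood at 19.51, 19.68, 17.57 and 19.27 CPM in dMTS-DELE1 cells in vehicle and at 13.58, 17.68, 16.58 and 15.93 in F137S cells. It was higher in dMTS-DELE1 cells (0.25 ± 0.06, adjusted p = 0.0007), with 1 F137S library above the lowest dMTS-DELE1 library. With antimycin A that difference was 0.08 (adjusted p = 0.3). The response of BCL2L1 was -0.11 to 0.07 over the lines and passed in 0 of 5.

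Of the pore-forming genes, BAX was lower in KO-vector than in WT-vector cells and rose slightly with antimycin A in 4 of 5 lines. In vehicle its level was 81.62, 80.79, 82.56 and 83.1 CPM in WT-vector cells and 69.31, 73.46, 73.62 and 71.98 in KO-vector cells. It was 76.27, 81.08, 81.18 and 78.8 in the libraries labelled KO + SLC25A12-WT. The KO-vector libraries lay below both other groups without overlap. F137S cells held 72.55, 72.47, 70.68 and 70.66 CPM and dMTS-DELE1 cells 63.83, 65.87, 65.83 and 70.37, all below F137S cells.

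BAX differed between KO-vector and WT-vector cells in vehicle by -0.19 ± 0.03 on the log2 scale (adjusted p = 1.4e-06), and between the labelled libraries and KO-vector cells by 0.14 (adjusted p = 0.00027). Between dMTS-DELE1 and F137S cells the difference was -0.11 ± 0.03 (adjusted p = 0.0062). With only these groups in the fit that vehicle difference did not pass (adjusted p = 0.055). With antimycin A it was -0.15 ± 0.03 (adjusted p = 3.9e-05), and KO-vector minus WT-vector was -0.13 ± 0.03 (adjusted p = 0.0004), both without overlap. Antimycin A raised BAX in KO-vector cells (0.11, adjusted p = 0.0023), in the labelled libraries (0.11, adjusted p = 0.0038), in F137S cells (0.14, adjusted p = 0.00029) and in dMTS-DELE1 cells (0.09, adjusted p = 0.03). In WT-vector cells the value was 0.06 ± 0.03 (adjusted p = 0.11), although treated libraries (83.55 to 88.23 CPM) lay above vehicle ones. The call in dMTS-DELE1 cells was lost without vehicle replicate 1 (adjusted p = 0.13), 2 (0.064) or 3 (0.065), or antimycin replicate 1 (0.064) or 2 (0.1), of that line. The 5 responses of BAX did not differ by a test over all at once (adjusted p = 0.74), which does not show that they are equal.

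BAK1, the pore former held at the outer membrane, had vehicle means of 39.7 to 41.3 CPM in 4 lines and stood at 36.8 ± 2.18 CPM in dMTS-DELE1 cells. The dMTS-DELE1 libraries in vehicle held 34.7, 39.68, 35.62 and 37.24 CPM, with 1 of them above the lowest F137S library at 39.3. The difference from F137S cells was -0.16 ± 0.04 in vehicle (adjusted p = 0.0028) and -0.19 ± 0.04 with antimycin A (adjusted p = 0.00021). Its antimycin response was -0.04 to 0.01 and passed in 0 of 5 lines.

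**Figure D3:**
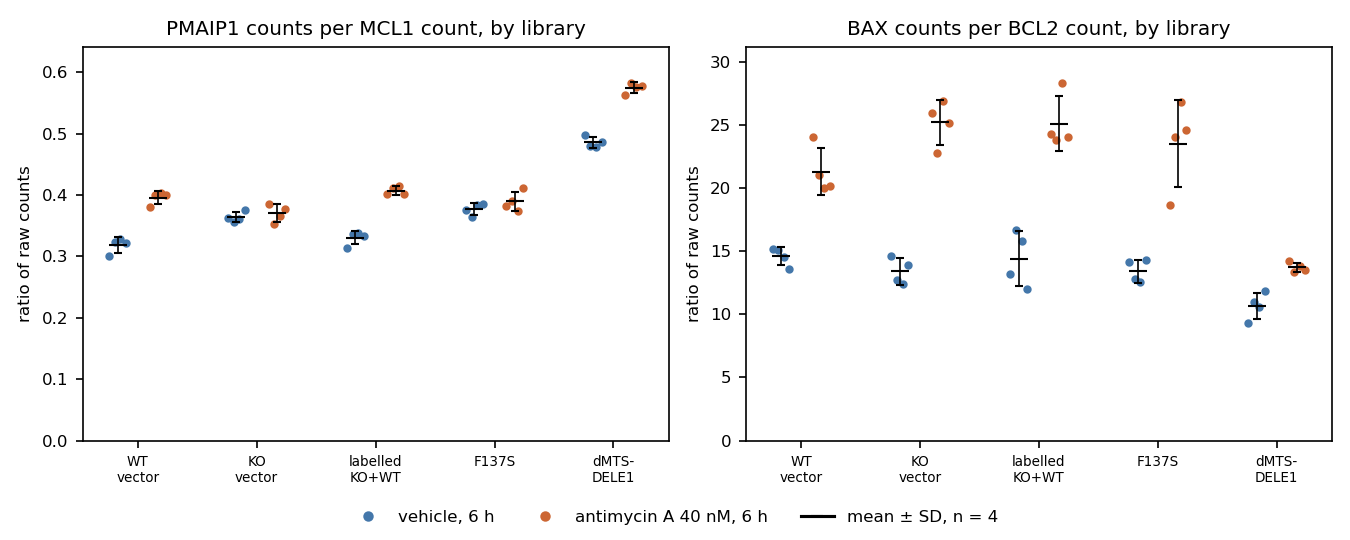
Ratio of raw counts of PMAIP1 to MCL1 and of BAX to BCL2 in each library (points), by line and treatment, with the mean and SD of 4 libraries. The PMAIP1 to MCL1 ratio reaches 0.562 to 0.5826 in dMTS-DELE1 cells with antimycin A, and the BAX to BCL2 ratio is higher with antimycin A than with vehicle in every line.

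Ratios of these mRNAs within a library need no scaling between libraries, and they were computed as a description. The count of PMAIP1 divided by that of MCL1, its binding partner, was 0.318 ± 0.0124 in WT-vector and 0.364 ± 0.00841 in KO-vector cells in vehicle, and 0.396 ± 0.0105 and 0.370 ± 0.0142 with antimycin A (SD, n = 4). In dMTS-DELE1 cells it was 0.485 ± 0.00928 in vehicle and 0.574 ± 0.00882 with antimycin A, the highest of the 10 groups. The BAX to BCL2 ratio was 14.6 ± 0.711 in WT-vector and 13.4 ± 1.05 in KO-vector cells in vehicle. With antimycin A it was 21.3 ± 1.88 and 25.2 ± 1.76. In dMTS-DELE1 cells the ratio was lowest of the lines in both treatments, at 10.7 ± 1.06 and 13.7 ± 0.387. BCL2L11 to BCL2L1 was also lowest there in vehicle, at 2.94 ± 0.111 against 4.17 ± 0.433 in F137S cells. A ratio of mRNA counts is not a ratio of proteins.

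TNFRSF10B, the receptor, had the largest difference between lines of the 9 genes and passed for antimycin A in 1 of 5 lines. In vehicle its level was 98.43, 95.55, 96.47 and 95.31 CPM in WT-vector cells and 77.82, 81.72, 83.89 and 82.59 in KO-vector cells. It was 99.52, 95.95, 96.68 and 92.89 in the libraries labelled KO + SLC25A12-WT. The KO-vector libraries were lower than both other groups, with no overlap. F137S cells held 90.1, 90.43, 88.3 and 86.97 CPM and dMTS-DELE1 cells 135.9, 139.7, 143.9 and 135.0, above every other vehicle library.

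In vehicle TNFRSF10B was lower in KO-vector than in WT-vector cells (a log2 fold change of -0.24 ± 0.03, adjusted p = 5.6e-11) and 55.8% higher in dMTS-DELE1 than in F137S cells (0.64 ± 0.03, adjusted p = 4.3e-32). In the labelled libraries it exceeded KO-vector cells by 0.24 ± 0.03 (adjusted p = 8.3e-11). F137S libraries lay above KO-vector ones without overlap, by 0.13 ± 0.03, which did not pass (adjusted p = 0.057) though DESeq2 gave an adjusted p of 0.021. With antimycin A dMTS-DELE1 cells held 142.3, 145.5, 141.7 and 147.7 CPM, 61.6% above F137S cells (0.69 ± 0.03, adjusted p = 2e-34). KO-vector minus WT-vector was again -0.24 (adjusted p = 3.2e-11).

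The antimycin response of TNFRSF10B was 0.01 to 0.09 over the lines and passed only in the libraries labelled KO + SLC25A12-WT (0.09 ± 0.03, adjusted p = 0.01). There the treated libraries (99.3 to 103.4 CPM) overlapped the vehicle ones (92.89 to 99.52), and without vehicle replicate 4 the adjusted p was 0.06. Responses in WT-vector (0.05 ± 0.03, adjusted p = 0.15) and KO-vector cells (0.05, adjusted p = 0.17) did not pass, nor did a difference of response between lines. In dMTS-DELE1 cells the value was 0.06 (adjusted p = 0.1), and 0.0766 without vehicle replicate 3 (adjusted p = 0.04).

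**Figure D4:**
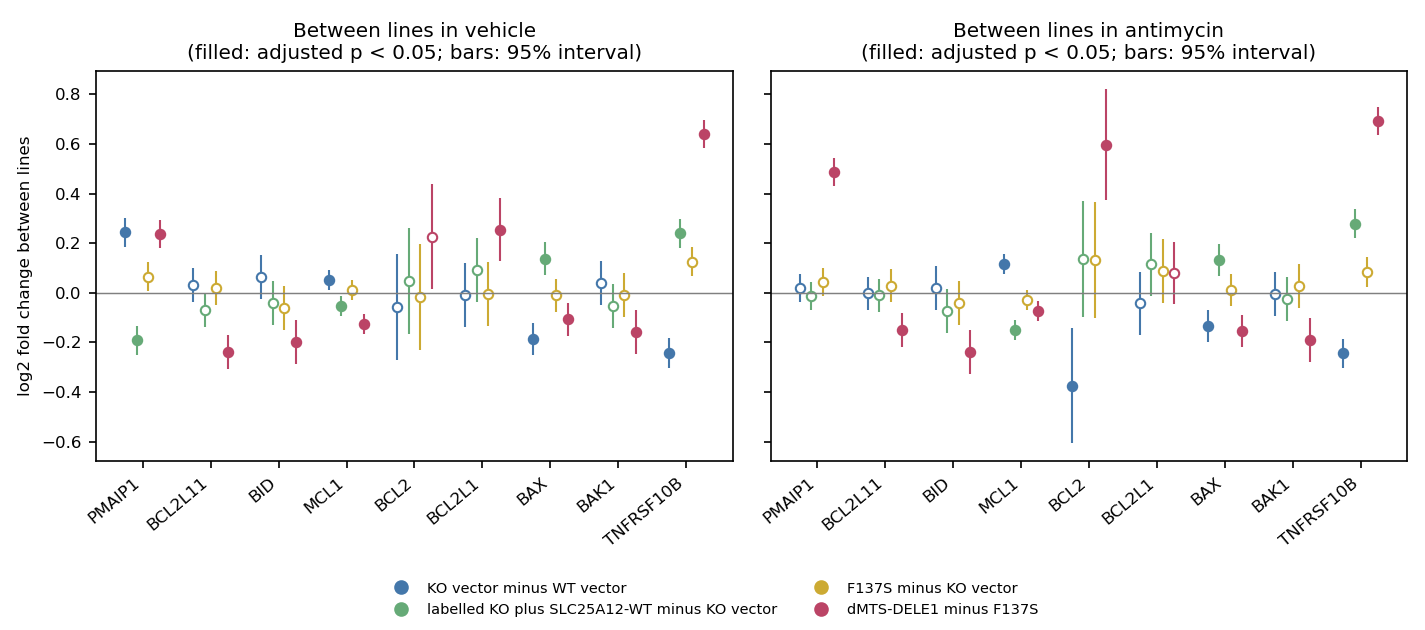
Log2 fold change between lines for the 9 genes (horizontal axis) in vehicle (left) and with antimycin A (right), coloured by pair of lines, with 95% intervals and filled points where the adjusted p is under 0.05. The comparison of dMTS-DELE1 with F137S cells has the widest spread, from -0.24 for BCL2L11 to 0.64 for TNFRSF10B in vehicle. F137S against KO-vector cells has no filled point.

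Counted over the 9 genes in vehicle, KO-vector cells had PMAIP1 and MCL1 higher than WT-vector cells, where 22.7% of all genes were higher, and TNFRSF10B and BAX lower, where 25.6% were lower. The labelled libraries against KO-vector cells had 2 higher (25.3% of all genes) and 2 lower (22.6%). F137S against KO-vector cells had 0 called by edgeR, with 2 at an unadjusted p under 0.05 and 1 called by DESeq2 (0.0836% of all genes called). dMTS-DELE1 against F137S cells had 3 higher (17.7%) and 5 lower (24.1%). The labelled libraries against WT-vector cells had 0 called by edgeR, 0 at an unadjusted p under 0.05 and 0 called by DESeq2 (0% of all genes).

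With antimycin A, KO-vector against WT-vector cells had 1 higher (23.5% of all genes) and 3 lower (24.5%), and the labelled libraries against KO-vector cells 2 higher (24.7%) and 1 lower (23.5%). F137S against KO-vector cells had 0 called by edgeR, with 1 at an unadjusted p under 0.05 and 0 by DESeq2 (0.114% of all genes called). dMTS-DELE1 against F137S cells had 3 higher (25.5%) and 5 lower (28.8%). The labelled libraries against WT-vector cells had 0 by edgeR, 1 at an unadjusted p under 0.05 and 0 by DESeq2 (0.00597%). In differences of response, F137S against KO-vector cells and the labelled libraries against WT-vector cells each had 0 called by edgeR, 0 at an unadjusted p under 0.05 and 0 by DESeq2 (0% of all genes in both). A test over the 5 lines in vehicle called 8 of 9 genes, all but BCL2 (71.5% of all genes). The same over the 5 responses called PMAIP1 (adjusted p = 1.1e-08) and MCL1 (17%). Without dMTS-DELE1 vehicle replicate 1, BAK1 was not called in vehicle (adjusted p = 0.068). The comparisons share libraries, since KO-vector cells enter 3 pairs of lines and F137S cells 2.

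Against F137S cells, dMTS-DELE1 cells combined higher PMAIP1 and TNFRSF10B with lower BCL2L11, BID, BAX, BAK1 and MCL1, in vehicle and with antimycin A. BCL2L1 passed as higher in vehicle and BCL2 passed as higher with antimycin A. In the other treatment each leaned higher without passing. BCL2 in vehicle was higher by 0.23 on the log2 scale (edgeR, adjusted p = 0.082), without overlap, and BCL2L1 with antimycin A by 0.08 (adjusted p = 0.3). The difference of response did not pass for either gene (adjusted p = 0.11 for BCL2 and 0.22 for BCL2L1). SLC25A12, at 3716 against 1853 CPM in vehicle, differs between these lines too, and its part in these differences was not tested. Mean MCL1 with antimycin A was 332.3 CPM in dMTS-DELE1 cells, against 329.4 in WT-vector cells and 321.4 in the labelled libraries.

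Other genes of the BCL2 family were given as a list of 15, of which 12 were tested. In WT-vector cells antimycin A raised 4 and lowered 2 of them, where 25.5% of all genes rose and 26.4% fell. In dMTS-DELE1 cells it raised 1 and lowered 2 (17.6% and 17.3% of all genes). BBC3 (PUMA), a BH3-only gene, rose in WT-vector cells (a log2 fold change of 0.73 ± 0.09, adjusted p = 4.3e-11) and stood at 0.13 ± 0.09 in KO-vector cells (adjusted p = 0.22). That difference of response was tested and was -0.60 ± 0.13 (adjusted p = 0.0016). BBC3 was higher in dMTS-DELE1 than in F137S cells in vehicle (0.85 ± 0.09, adjusted p = 2.4e-13). BMF, a BH3-only gene, was higher in KO-vector than in WT-vector cells (0.51 ± 0.09, adjusted p = 5.3e-07). BCL2L2 (BCL-W), a guardian, was lower there (-0.13 ± 0.04, adjusted p = 0.0083), as was the mitophagy receptor BNIP3 (-0.21 ± 0.04, adjusted p = 3.4e-06).

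Of 13 genes of the death receptor pathway, 10 were tested, and 5 rose and 1 fell with antimycin A in WT-vector cells (25.5% and 26.4% of all genes). In dMTS-DELE1 cells 1 rose and 2 fell (17.6% and 17.3%). TNFRSF10A, the gene of death receptor 4, was listed with 0 counts in all 40 libraries. A count of 0 in 1 library taken alone allows an expected count of up to about 3, and the 40 libraries together allow less in each. FADD, the adaptor that death receptor 5 recruits, fell in WT-vector (-0.50 ± 0.04, adjusted p = 5.6e-18), KO-vector (-0.39 ± 0.04) and dMTS-DELE1 cells (-0.27 ± 0.04, adjusted p = 5.2e-08). CASP8, the initiator caspase of the receptor complex, stood at 28.59, 30.87, 29.33 and 30.65 CPM in WT-vector cells in vehicle and 3.78, 4.652, 4.442 and 3.966 in KO-vector cells. It stood at 31.17, 29.52, 31.2 and 31.3 CPM in the libraries labelled KO + SLC25A12-WT. Levels in F137S cells were 4.634, 3.988, 4.659 and 3.684 CPM. KO-vector and F137S libraries lay far below the other 2 groups (KO minus WT -2.83 ± 0.08, adjusted p = 2e-44), a larger difference than that of any of the 9 genes. In dMTS-DELE1 cells CASP8 was higher than in F137S cells (0.82 ± 0.09, adjusted p = 2.4e-12), a smaller difference than the -2.83 of KO-vector minus WT-vector cells. FAS was lower in KO-vector than in WT-vector cells (-0.55 ± 0.09, adjusted p = 2.4e-07), and CFLAR, the inhibitor of CASP8, was higher (0.24 ± 0.04, adjusted p = 2.3e-06).

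Of 13 caspase, apoptosome and inhibitor genes, 6 rose and 5 fell with antimycin A in WT-vector cells, where 25.5% of all genes rose and 26.4% fell. In dMTS-DELE1 cells 4 rose and 4 fell (17.6% and 17.3% of all genes). CASP9, the initiator caspase of the apoptosome, rose (0.37 ± 0.06, adjusted p = 9.9e-08), while APAF1, the scaffold of the apoptosome, fell (-0.20 ± 0.04, adjusted p = 1.6e-05). CYCS, cytochrome c, fell by 0.13 ± 0.02 on the log2 scale (adjusted p = 3.7e-07). Of 7 genes for turnover or retention of BCL2 proteins, 1 rose and 4 fell in WT-vector cells (25.5% and 26.4% of all genes), and 0 rose and 3 fell in dMTS-DELE1 cells (17.6% and 17.3%). HUWE1, a ubiquitin ligase of MCL1 (-0.13 ± 0.02, adjusted p = 1e-09), and USP9X, which removes ubiquitin from MCL1 (-0.21 ± 0.02, adjusted p = 3e-17), both fell in WT-vector cells.

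Of 11 transcription factors linked to genes of cell death, 8 rose and 2 fell with antimycin A in each of WT-vector, KO-vector and dMTS-DELE1 cells. Over all genes 25.5% rose and 26.4% fell in the first of these lines, 26.4% and 24.7% in the next, and 17.6% and 17.3% in dMTS-DELE1 cells. In vehicle, KO-vector against WT-vector cells had 2 of the 11 higher and 7 lower (22.7% and 25.6% of all genes). For dMTS-DELE1 against F137S cells 7 were higher and 2 lower (17.7% and 24.1%). The difference of response between dMTS-DELE1 and F137S cells was positive for 1 and negative for 6, where 11.9% of all genes passed. ATF4 rose by 0.35 ± 0.02 in WT-vector cells (adjusted p = 1.2e-29) and by 0.07 ± 0.02 in KO-vector cells (adjusted p = 0.00044), a difference of -0.28 ± 0.02 (adjusted p = 2e-14). DDIT3 (CHOP) rose by 0.86 ± 0.07 and 0.63 ± 0.07 in these lines, and that difference did not pass (-0.23 ± 0.09, adjusted p = 0.28). In vehicle, dMTS-DELE1 cells exceeded F137S cells by 1.73 ± 0.06 for DDIT3 (adjusted p = 1.2e-36) and 1.75 ± 0.04 for ATF3 (adjusted p = 5.7e-51), and by 0.08 ± 0.02 for ATF4.

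Genes whose pattern over the 10 group means was most like that of a member were ranked by Pearson r, as a description over groups that share lines and treatments. For PMAIP1 these were VPS11 (r = 0.988), MSL2 (0.986) and ZNF391 (0.985). For TNFRSF10B they were MCOLN3 (0.990), CELSR3 (0.985) and HRK (0.985), itself a BH3-only gene. HRK was 1.00 ± 0.08 higher on the log2 scale in dMTS-DELE1 than in F137S cells in vehicle (adjusted p = 9.5e-18). BAX was most like RGMA (0.994) and BCL2 most like INO80 (0.985). BAK1 was among the 3 most like BCL2L11 (r = 0.948 over the group means and 0.547 over the 40 libraries). All these genes are the highest of 12128 compared on only 10 points. Ranked over the 40 libraries, 1 of the 3 genes was shared for PMAIP1, BID, BCL2, BAK1 and TNFRSF10B and 0 for the other 4.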

How the data were processed

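PolyA RNA of 40 HEK293T libraries was sequenced in pairs of reads. The table deposited by the authors holds raw counts per gene symbol, and is not normalized. The hg38 build, HISAT2 2.1.0 and featureCounts 2.0.6 are named per the submitters' processing notes. Not given in the sources used here are annotation, settings and strandedness, so reads of overlapping antisense genes cannot be separated. Each library was placed in its group by its label. Library totals, which limit precision, are given with the results.

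Counts were analysed in R 4.3.3 with edgeR 4.0.16 and limma 3.58.1. The filterByExpr filter (minimum count 10) kept 16739 genes, and counts were scaled by the trimmed mean of M-values (TMM). A quasi-likelihood model (robust option, 1 coefficient for each group) was fitted to all 40 libraries. Contrasts gave 20 comparisons and 2 tests over all lines, with Benjamini-Hochberg adjustment over all genes and a threshold of 0.05. Standard errors derive from the F statistic. The procedure was tested on simulated data in which far fewer genes changed than were called for antimycin A here. Scaling and false calls where so many genes change were not tested by it.

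The members and gene lists were chosen with earlier results of these data known. The genes named are the 9 members, SLC25A12, DELE1, genes picked by name from the lists, the HEK293 markers NEFM, NEFL and LIN28B, and for each member the 3 genes with the highest Pearson r over the 10 group means. The lists held other BCL2 family genes, the death receptor pathway, caspases with the apoptosome and its inhibitors, transcription factors, turnover of BCL2 proteins, and cell type markers. The 3 HEK293 markers were chosen for mention from their values.

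Alternatives were DESeq2 size factors, no filter, the tests of DESeq2 1.42.0, a fit of only the groups compared, a 2-fold minimum for a call, a replicate block, leaving out each library and a prior count of 0.5 in place of 2. Counts halved, because 55.06 to 58.7% of counts from 1 to 20 were even, and a fit without the libraries labelled KO + SLC25A12-WT were added after seeing the data. Libraries with the same replicate number did not deviate together (mean correlation -0.0015 over all pairs of groups). Between vehicle and antimycin A of a line the correlation was -0.079 to 0.101, over 0.1 in 1 of 20 pairs, so tests are unpaired. No libraries of a group were duplicates (chi-square per gene 2.94 to 5.81 between them). Some list genes are not reported here.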

Additional observations from a re-analysis of the deposited data

Results flagged for a closer look

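PMAIP1 was at 121.5 CPM in replicate 2 of F137S cells in vehicle, below the 3 other libraries at 131.0 to 132.9. Without it the response of F137S cells to antimycin A did not pass (log2 fold change 0.0422, adjusted p = 0.25). BID was at 44.66 CPM in replicate 4 of WT-vector cells with antimycin A, above the 3 others at 41.08 to 41.68. BCL2L1 was at 16.87 CPM in replicate 1 of dMTS-DELE1 cells with antimycin A, below 17.91 to 17.93 in the others. TNFRSF10B was at 99.3 CPM in replicate 1 with antimycin A of the libraries labelled KO + SLC25A12-WT, below 103.0 to 103.4 in the others. Each of these 4 libraries stood far from the rest of its group, among 90 combinations of gene and group looked at. Chance gives about 1 in 20.

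The response of PMAIP1 to antimycin A differed between lines in a test of the difference. The log2 difference was -0.23 for KO-vector minus WT-vector cells, 0.18 for the libraries labelled KO + SLC25A12-WT minus KO-vector cells and 0.25 for dMTS-DELE1 minus F137S cells. Over all 5 lines the adjusted p was 1.1e-08. MCL1 responses also differed over the 5 lines, with an adjusted p of 0.013, though no tested pair of lines passed. The lowest adjusted p of such a pair was 0.062, for the labelled libraries minus KO-vector cells.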

How the results depend on the processing

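No difference of the 9 genes that passed the test changed sign under any alternative run. Differences near 0 that did not pass could change sign, such as the antimycin response of BAK1 in WT-vector cells (0.0064, and -0.014 at its lowest with a library left out). A call at 2-fold or more left 0 of the 9 genes in each of the 20 comparisons, including the 14 with calls. DESeq2's Wald test called 1 gene, TNFRSF10B, between F137S and KO-vector cells in vehicle, where edgeR called 0. With each library left out in turn, calls ranged from 1 to 2 for the difference of response between the labelled libraries and KO-vector cells. MCL1 was added there without KO-vector vehicle replicate 1, or vehicle replicate 3 or antimycin replicate 4 of the labelled libraries (adjusted p = 0.032, 0.021 and 0.04). Calls ranged from 1 to 2 for the difference of response between dMTS-DELE1 and F137S cells, and from 2 to 4 for the antimycin response of dMTS-DELE1 cells, with 2 left without replicate 1 of either treatment. A replicate block changed the call of none of 198 results for single genes, and halved counts of none of 198. Without the labelled libraries, BID passed in WT-vector cells (adjusted p = 0.049).

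PMAIP1 in F137S cells and BCL2 in dMTS-DELE1 cells lost their antimycin calls with no filter (adjusted p = 0.08 and 0.07). With only the compared groups in the fit, PMAIP1 lost it in F137S cells (0.068) and BAX in dMTS-DELE1 cells (0.098). BCL2L11 passed between the labelled libraries and KO-vector cells in vehicle with DESeq2 size factors (0.042), no filter (0.04) and DESeq2 (0.029). BCL2 passed over the 5 responses with DESeq2 (0.031) and without any 1 of 5 libraries (0.031 to 0.048). These were replicate 1 of KO-vector and of dMTS-DELE1 cells and replicate 2 of the labelled libraries in vehicle, and KO-vector replicate 2 and F137S replicate 1 with antimycin A. BID and BCL2L1 passed between the labelled libraries and KO-vector cells with antimycin A without labelled replicate 2 (0.035) or 4 (0.036). The causes of these changes were not tested.

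Over all genes, F137S against KO-vector cells had 14 calls in vehicle and 19 with antimycin A, and DESeq2 gave 24 and 34. Halved counts gave 6 in vehicle, and only the compared groups 12 with antimycin A. Without KO-vector vehicle replicate 1, 2 or 3 or F137S vehicle replicate 4 there were 5 to 9 in vehicle, and without KO-vector antimycin replicate 1 there were 12 with antimycin A. The single call between the labelled libraries and WT-vector cells with antimycin A was lost under the replicate block (0) and without WT-vector antimycin replicate 2 or 4 or antimycin replicate 1, 2 or 3 of the labelled libraries. With only the groups compared there was 1 call between these lines in vehicle, in place of 0. DESeq2 size factors moved the median of all genes by at most 0.0143 on the log2 scale. With them the share of higher calls went from 53.4% to 42.2% for the difference of response between KO-vector and WT-vector cells, and from 42.8% to 57.3% for the labelled libraries against KO-vector cells. BCL2, at 88 to 218 counts per library, has the widest standard errors of the 9 genes.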
